A study of Rattus norvegicus with 30 samples.

Results

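The 8 genes described here encode the precursors of neuropeptides made in the rat hippocampus: Npy, Sst, Penk, Pdyn, Tac1, Cck, Vip and Trh. They were chosen by name with earlier results of these data known, so their counts set beside those of all probe sets are a description. Every probe set of the array annotated to exactly 1 of these symbols was taken, which gave 12 probe sets of the 8740 that are not array controls. All 12 passed the filter on low signal, under which 6303 probe sets were tested. Sst, Pdyn, Tac1 and Trh each had 2 probe sets. The brighter of the pair stands for the gene, and the other is called the second probe set.

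Total RNA of rat hippocampus had been hybridised to 30 Affymetrix arrays. Rats had been treated with kainate, an agonist of glutamate receptors that provokes limbic seizures, or with phosphate-buffered saline (PBS) as the control. They were killed 1, 6, 24, 72 or 240 h later, which makes 10 groups of 3 arrays. Strain, age, sex, dose and route are not given in the sources used here, nor is it said whether each array is a separate animal, so each p-value reflects array-to-array spread, which may be technical. The tissue is bulk hippocampus, in which fewer cells of a type and less RNA per cell cannot be told apart.

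Neuropeptides are cut from larger precursors in the regulated secretory pathway, stored in dense core vesicles and released mainly during high-frequency firing. In the hippocampus Npy, Sst, Cck and Vip are best known from GABAergic interneurons, Penk and Pdyn from granule cells and their mossy fibres, and Tac1 and Trh from smaller or inducible pools. Several of these precursor genes are transcribed in response to calcium and cyclic AMP through the cyclic AMP response element (CRE), whose binding factors include Creb1 and Crem.

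By the standing probe sets, 4 of the 8 precursors were higher after kainate at 6 h and 4 at 24 h, and none was lower beyond the test's threshold at any of the 5 times. Npy, Penk and Tac1 passed at both times, Sst at 6 h and Trh at 24 h. For Sst the second probe set passed at 24 h, which makes 5 genes at that time by any probe set. The tests were limma contrasts of kainate against PBS at the same time, with Benjamini-Hochberg adjustment over all 6303 probe sets and a threshold of 0.05. At 6 h 5 of the 12 member probe sets passed, all higher, where 3.93% of all tested probe sets passed, 3.24% as higher and 0.698% as lower. At 24 h 7 of 12 passed, all higher, where 11.3% of all passed, 5.03% as higher and 6.3% as lower. Among the 7 is the second probe set of Trh, which could pass the filter on low signal only through the kainate groups of 24 and 72 h, and without it 6 of 11 passed. None of the 12 passed at 1 h (1.09% of all passed, 0.904% as higher and 0.19% as lower), at 72 h (0.0476%) or at 240 h (0.0476%). The looser cutoff of an unadjusted limma p under 0.05 was met by 7 of the 12 in the 6 h comparison and 8 in that of 24 h. It was met by 2 for 72 h, 2 for 240 h and 0 for 1 h. How many of all tested probe sets met this looser cutoff was not counted, so no excess among the members can be read from it. The median log2 change of the 12 was 0.41 at 6 h and 0.67 at 24 h, beside −0.11 and −0.05 over all tested probe sets. With quantile normalization the median over all probe sets at 6 h was −0.06.

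**Figure D1:**
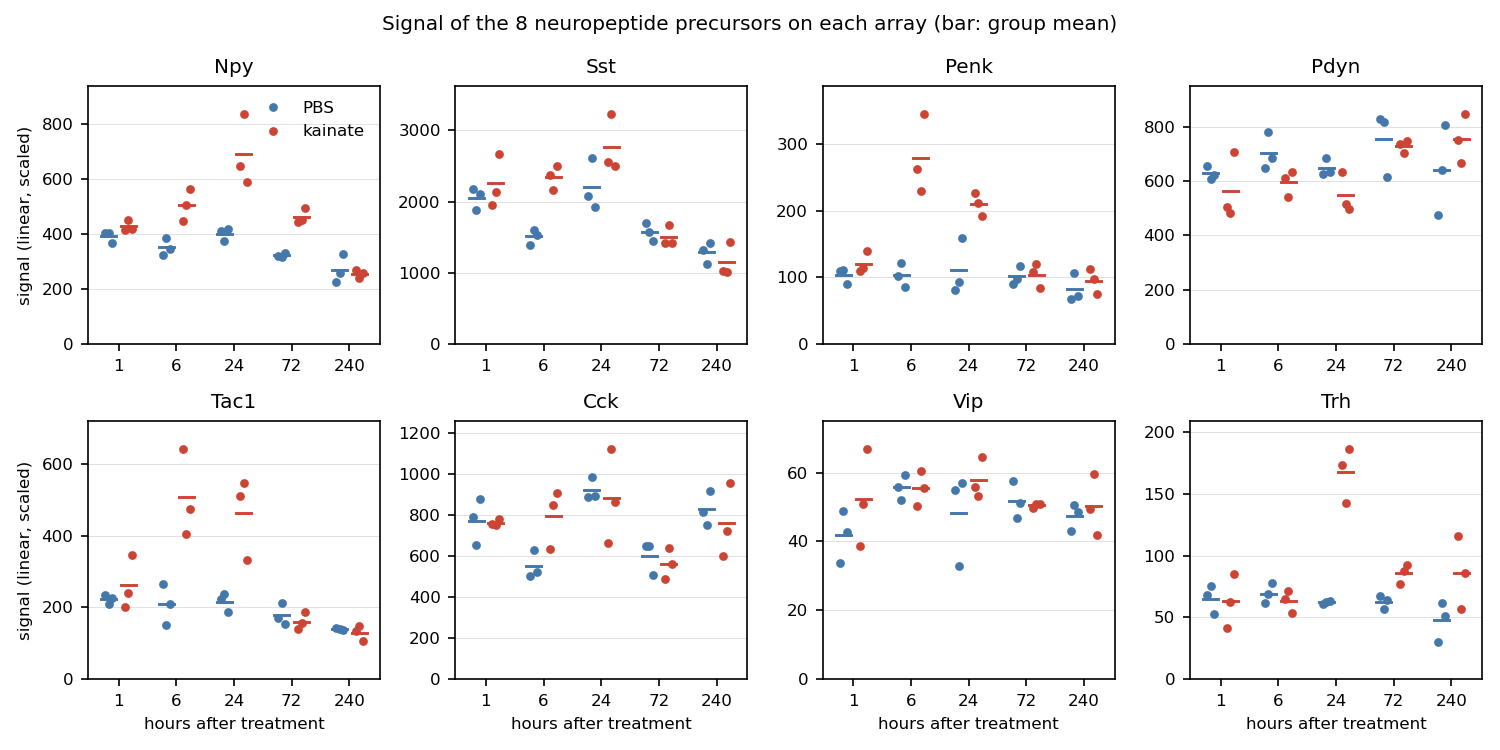
Signal on a linear scale (scaled to a common trimmed mean) of the probe set that stands for each of the 8 precursors, on each of 30 arrays. The horizontal axis gives hours after treatment in equal steps, blue points are PBS arrays, red points kainate arrays and short bars the group means. The 3 kainate arrays of Penk and Tac1 lie above all PBS arrays of the same time at 6 and 24 h, those of Npy at every time but 240 h, and those of Trh at 24 and 72 h.

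The kainate and control groups did not overlap at 8 of the 12 member probe sets at 6 h, with kainate higher at 7 and lower at 1, and at 7 at 24 h, all higher. Over all tested probe sets the share was 27.7% at 6 h and 28.1% at 24 h. At 72 h the groups were apart at 4 member probe sets, all higher (22.1% of all), at 1 h at 1 (10.3%) and at 240 h at 1 (14.5%).

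**Figure D2:**
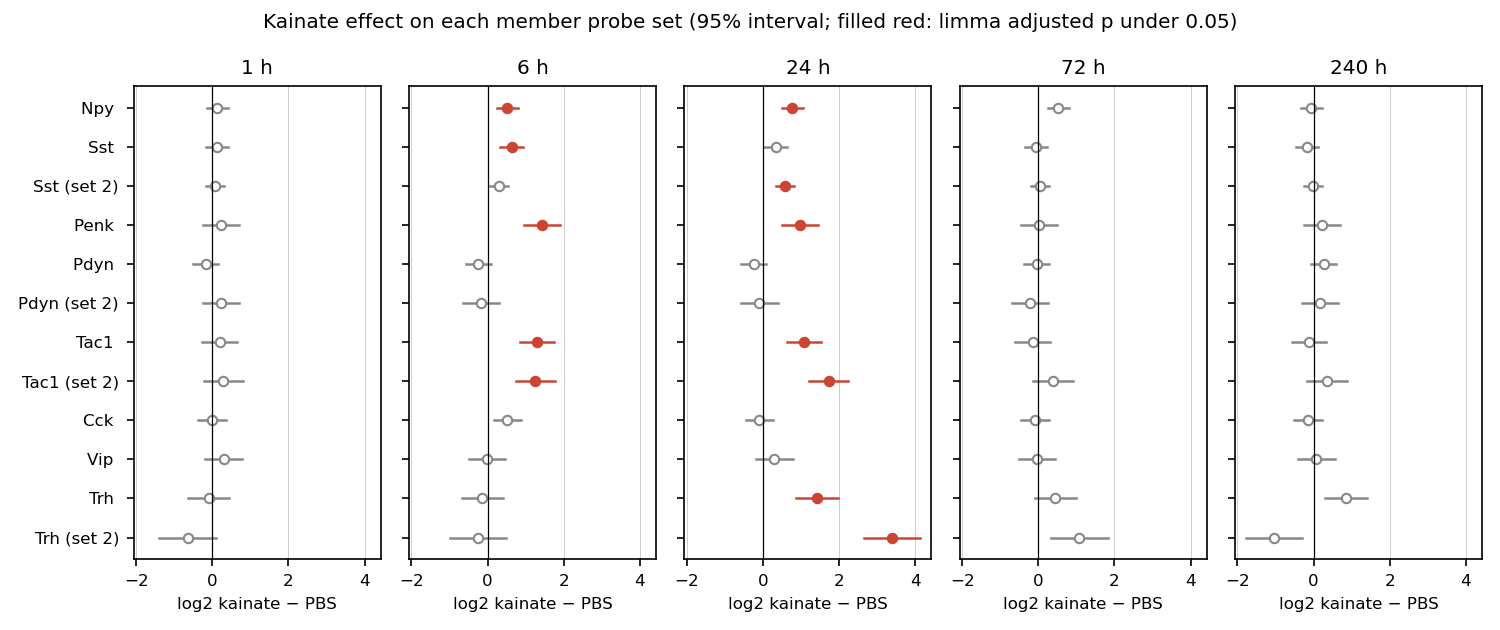
Log2 kainate minus PBS of the 12 member probe sets at each of the 5 times, 3 arrays per group. Points are the limma estimates, lines their 95% intervals, and filled red points passed at an adjusted p under 0.05. The red points lie at 6 h (5) and 24 h (7), and all of them lie to the right of 0.

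The regions before the genes that moved are shown so that their letters can be set against their time courses, together with that of Vip, for which no change passed. RefSeq windows in the GRCr8 build were found for 6 of the 8 genes, and Penk and Cck had no entry. Each line gives 220 bases before the annotated start and 10 after it, 5′ to 3′ on the strand of the gene. Capitals mark the full palindromic CRE (TGACGTCA) or its core alone (TGACG, or CGTCA when it lies on the other strand).
Sst, chr11:90461326-90461555, plus strand: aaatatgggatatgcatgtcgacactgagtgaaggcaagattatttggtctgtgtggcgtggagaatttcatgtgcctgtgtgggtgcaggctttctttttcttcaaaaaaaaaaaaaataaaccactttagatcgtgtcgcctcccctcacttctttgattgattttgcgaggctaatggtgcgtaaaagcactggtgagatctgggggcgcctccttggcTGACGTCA
Tac1, chr4:36645363-36645592, plus strand: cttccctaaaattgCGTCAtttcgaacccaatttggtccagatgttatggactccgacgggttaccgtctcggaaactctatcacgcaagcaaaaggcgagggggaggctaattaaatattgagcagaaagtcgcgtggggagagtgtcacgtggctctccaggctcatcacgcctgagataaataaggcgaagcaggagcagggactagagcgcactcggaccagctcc
Trh, chr4:126301753-126301982, minus strand: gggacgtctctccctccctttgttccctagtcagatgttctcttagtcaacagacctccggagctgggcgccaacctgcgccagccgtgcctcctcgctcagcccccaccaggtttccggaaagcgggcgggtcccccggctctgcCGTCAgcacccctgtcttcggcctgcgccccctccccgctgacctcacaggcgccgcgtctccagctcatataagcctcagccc
Npy, chr4:80211891-80212120, plus strand: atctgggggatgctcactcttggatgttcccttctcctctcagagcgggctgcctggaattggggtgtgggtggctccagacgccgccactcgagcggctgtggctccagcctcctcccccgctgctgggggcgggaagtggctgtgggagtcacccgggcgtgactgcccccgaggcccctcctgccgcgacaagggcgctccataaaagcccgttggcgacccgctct
Vip, chr1:44470260-44470489, plus strand: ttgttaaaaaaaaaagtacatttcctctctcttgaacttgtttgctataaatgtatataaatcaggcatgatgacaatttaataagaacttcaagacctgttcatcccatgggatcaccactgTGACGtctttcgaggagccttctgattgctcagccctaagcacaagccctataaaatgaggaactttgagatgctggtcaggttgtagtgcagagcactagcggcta
The motifs were searched on both strands in the whole windows of 250 bases before and 50 after each start. Sst alone of the 6 members held the full CRE, at positions 3 to 10 counted from the annotated start, at chr11:90461548-90461555, and 1.83% of 33469 rat promoter windows held it. The core TGACG, which lies within the full CRE as well, was in 4 of 6 member windows and in 21.2% of all. It stood at −206 to −202 in Tac1, at −74 to −70 in Trh and at −97 to −93 in Vip. The AP-1 motif TGANTCA was in 0 of 6 member windows and in 7.33% of all. A TATAAA was found in 2 member windows, those of Pdyn and Vip, and in 14.2% of all. The Npy window held none of these letter strings. The window of Pdyn, for which no change passed either, is not printed, and it held neither the full CRE nor its core. These are matches of letters, and no binding was measured. Positions count from the annotated starts, and where transcription began in this tissue was not measured.

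Npy encodes neuropeptide Y, which damps glutamate release in the hippocampus. At 6 h its signal was 324, 386 and 347 on the PBS arrays and 448, 507 and 564 on the kainate arrays. Every kainate array lay above every PBS array, and the rise was 1.44-fold (log2 change 0.52 ± 0.13 SE, 95% interval 0.25 to 0.80, limma adjusted p = 0.0199). At 24 h the PBS arrays read 412, 375 and 419 and the kainate arrays 646, 838 and 591. The rise there was 1.70-fold (log2 0.77, interval 0.49 to 1.04, limma adjusted p = 0.000386), again without overlap. At 72 h the kainate arrays, at 445, 450 and 497, also stood above the PBS arrays at 321, 315 and 333. The change of 0.52 (interval 0.25 to 0.80) did not pass at that time (limma adjusted p = 0.191), when 3 of all 6303 probe sets did, and it passed with array weights (limma adjusted p = 0.00225). At 240 h the groups overlapped, at 226, 260 and 327 against 271, 240 and 261. The effect at 240 h was lower than that at 24 h by a difference of −0.83 ± 0.19 SE (limma adjusted p = 0.00949). The call at 6 h is less steady than that at 24 h. It was lost without kainate replicate 2 (limma adjusted p = 0.0705), kainate replicate 3 (0.155), PBS replicate 1 (0.0772) or PBS replicate 3 (0.0743) of 6 h, and with only the 6 arrays of 6 h (0.065).

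Sst encodes somatostatin, an inhibitory peptide of interneurons that contact distal dendrites. At 6 h the PBS arrays read 1394, 1604 and 1535 and the kainate arrays 2379, 2160 and 2492. The groups lay well apart, with a rise of 1.55-fold (log2 0.63 ± 0.14 SE, interval 0.34 to 0.93, limma adjusted p = 0.0068). This call was lost without kainate replicate 3 of 6 h (limma adjusted p = 0.0517). The PBS level of Sst differed between times, and the kainate arrays of 6 h lay within the range of the PBS arrays of 24 h, 1918 to 2613. At 24 h the same probe set read 2081, 2613 and 1918 against 2558, 3233 and 2505. Here the groups overlapped, and the log2 change of 0.33 (interval 0.03 to 0.63) did not pass (limma adjusted p = 0.141).

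The second probe set of Sst passed at 24 h instead. At that time it read 698, 758 and 747 on PBS and 1129, 1056 and 1103 on kainate arrays, a rise of 1.49-fold (log2 0.58 ± 0.11 SE, limma adjusted p = 0.00132). At 6 h it read 627, 802 and 713 against 950, 830 and 845, and its log2 change of 0.30 did not pass (limma adjusted p = 0.181), although it did with array weights (0.024). Neither probe set showed a difference of effect between 24 and 6 h that passed (−0.30 for the standing one, limma adjusted p = 0.425, and 0.28 for the second, 0.348), so the data do not place the rise of Sst at one time over the other. The intervals of the probe sets at 6 h, 0.34 to 0.93 and 0.06 to 0.53, overlap, as do those at 24 h, 0.03 to 0.63 and 0.34 to 0.81. Over 30 arrays the log2 signals of both probe sets had a Pearson r of 0.872, as a description. At 240 h the effect on the second probe set was below that at 24 h by a difference of −0.59 ± 0.16 SE (limma adjusted p = 0.0281), and the same difference for the standing probe set was −0.50 (limma adjusted p = 0.152).

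Penk encodes proenkephalin, the source of the enkephalins, which act on mu and delta opioid receptors. Its signal at 6 h was 102, 122 and 86.2 on the PBS arrays and 262, 230 and 345 on the kainate arrays. The lowest kainate array was far above the highest control, a rise of 2.69-fold (95% interval 1.94 to 3.73, log2 1.43 ± 0.23 SE, limma adjusted p = 8.93e-05). At 24 h the PBS arrays read 80.8, 93.7 and 158 and the kainate arrays 227, 212 and 191, a rise of 1.97-fold (interval 1.42 to 2.74, limma adjusted p = 0.00624). PBS replicate 3 was the highest of the controls there, and in a fit of the 6 arrays of 24 h alone the rise did not pass (limma adjusted p = 0.063). By 72 h the values were 90.8, 97.8 and 117 against 108, 120 and 84.9, with a log2 change of 0.03 (interval −0.44 to 0.50). The single probe set of Penk is the only measure of this gene here.

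Pdyn encodes prodynorphin, the source of dynorphins, which act on kappa opioid receptors and are stored in mossy fibres. No change of Pdyn passed at any of the 5 times. At 6 h its kainate arrays read 613, 541 and 633 and its PBS arrays 647, 779 and 684, so that each kainate array lay below each control. The log2 change was −0.24 (interval −0.57 to 0.09, limma adjusted p = 0.516). At 24 h it was again −0.24 (interval −0.58 to 0.09), with kainate arrays at 634, 517 and 498 against 625, 686 and 633. At 240 h it was 0.27 (interval −0.06 to 0.60), with kainate arrays at 753, 668 and 848 against 475, 640 and 807. The second probe set, between 37.5 and 105 on all 30 arrays, had changes from −0.21 at 72 h to 0.24 at 1 h, none of which passed. Penk and Pdyn, both opioid precursors, thus had log2 changes of 1.43 and −0.24 at 6 h with intervals that do not overlap, a difference between genes that was not itself tested.

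Tac1 encodes the tachykinin precursor from which substance P and neurokinin A are cut, peptides that excite neurons and act in inflammation. At 6 h its PBS arrays read 264, 150 and 209 and its kainate arrays 643, 405 and 473. The rise was 2.46-fold (interval 1.80 to 3.36, log2 1.30 ± 0.22 SE, limma adjusted p = 0.000188). At 24 h the values were 224, 236 and 188 against 511, 546 and 331, a rise of 2.10-fold (interval 1.54 to 2.87, limma adjusted p = 0.00189). The groups were apart at both times, kainate replicate 3 of 24 h being the lowest of the treated arrays. The second probe set rose as well, 2.39-fold at 6 h (limma adjusted p = 0.00167) and 3.30-fold at 24 h (limma adjusted p = 4.15e-05). At 24 h it read 47.0, 26.8 and 48.3 on PBS and 130.1, 134 and 126 on kainate arrays, and at 72 h 47.6, 49.0 and 41.7 against 60.9, 57.7 and 62.1. The groups were apart there too, and the change of 0.39 (interval −0.13 to 0.91) did not pass (limma adjusted p = 0.869). At 72 h the standing probe set read 169, 213 and 153 against 139, 156 and 186, and the change of −0.15 did not pass (interval −0.60 to 0.30). The difference of the effect at 240 h from that at 24 h was −1.20 ± 0.31 SE on the standing probe set (limma adjusted p = 0.0218) and −1.38 ± 0.36 on the second (0.0221).

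Trh encodes the precursor of thyrotropin-releasing hormone, a tripeptide known in the hypothalamus and also made in limbic neurons. At 6 h its PBS arrays read 61.2, 69 and 77.5 and its kainate arrays 64.8, 71.4 and 53.1, which overlap. At 24 h the PBS arrays lay at 61.1, 62.8 and 63.6 and the kainate arrays at 174, 143 and 187. That is a rise of 2.67-fold (interval 1.83 to 3.89, log2 1.42 ± 0.27 SE, limma adjusted p = 0.000833). The effect at 24 h exceeded that at 6 h by a log2 difference of 1.55 ± 0.38 SE (limma adjusted p = 0.013). The effects at 72 and 240 h, 0.45 and 0.86, did not pass, and their differences from that at 24 h did not pass either (limma adjusted p = 0.464 and 0.397).

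The second probe set of Trh gave a steeper course at a lower signal. At 24 h it read 29.2, 12.2 and 22.7 on PBS arrays and 165, 253 and 222 on kainate arrays. The estimated rise was 10.5-fold (interval 6.27 to 17.5, log2 3.39 ± 0.36 SE) with the floor, and 6.17-fold (log2 2.63) on the scale of log2(signal + 16) without it. The controls lay under the filter's signal of 35.2, so the size of the fold is uncertain. This probe set stood above that signal on 8 of 30 arrays, 6 of which were the kainate arrays of 24 and 72 h. With 3 arrays needed, it could pass the filter only through those groups, and its result among the 6303 tested is therefore given as a description. With no filter, over all 8740 probe sets, the rise at 24 h passed (limma adjusted p = 1.07e-06). At 72 h it read 25.3, 21.3 and 20.2 against 41, 49.6 and 50.5, without overlap, and the change of 1.08 (interval 0.34 to 1.82) did not pass (limma adjusted p = 0.446), although it did with array weights (0.0235). At 240 h the probe sets of Trh went apart. The standing one read 30.4, 61.9 and 50.8 against 116, 57.1 and 85.7 (log2 change 0.86, limma adjusted p = 0.209). The second read 26.8, 25.8 and 20.6 against 13.1, 4.35 and 11.6, with 1 kainate array under the floor of 10.95 (log2 change −1.03, limma adjusted p = 0.274). Neither passed, so no direction is given for Trh at 240 h.

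**Figure D3:**
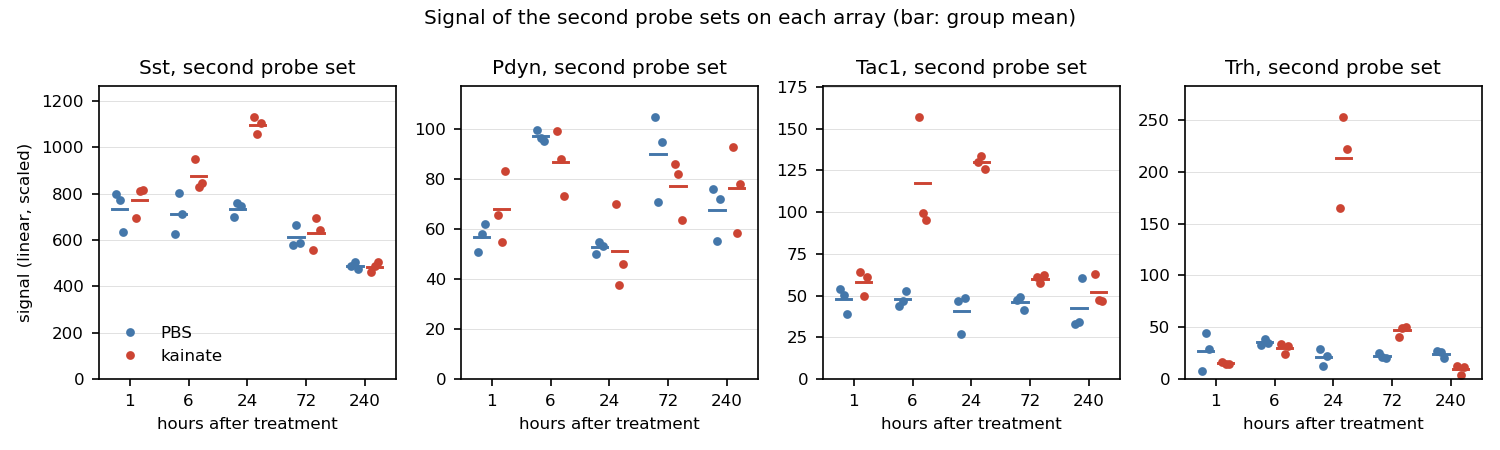
Signal on a linear scale of the second probe sets of Sst, Pdyn, Tac1 and Trh on each of 30 arrays, drawn as for the standing probe sets. Blue points are PBS arrays, red points kainate arrays and short bars group means. Kainate arrays of 24 h lie above all PBS arrays of that time for Sst, Tac1 and Trh, and overlap them for Pdyn.

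Cck encodes cholecystokinin, a peptide of basket cells and some pyramidal cells. At 6 h the kainate arrays read 632, 846 and 908 and the PBS arrays 504, 626 and 522, with no overlap by a small margin. The log2 change of 0.52 (interval 0.16 to 0.88) did not pass (limma adjusted p = 0.116), although it did with array weights (0.0152) and without kainate replicate 1 of 6 h (0.0463). At 24 h the groups overlapped widely, at 887, 982 and 893 against 661, 1123 and 864 (log2 change −0.09, interval −0.46 to 0.27). Vip encodes vasoactive intestinal peptide, a marker of interneurons that inhibit other interneurons. Its 30 values ran from 32.8 to 67, the groups overlapped at every time, and its changes lay between −0.03 and 0.30. The interval at 24 h was −0.18 to 0.78, whose upper end reaches the change of 0.77 seen for Npy.

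Over the 5 times together, 8 of 12 member probe sets differed at some time by the F test (9.33% of all tested), and 7 of 11 without the second probe set of Trh. For 6 of 12 the effect itself differed between times (6.62% of all), and for 5 of 11 without that probe set. The 6 were those of Npy, Penk, Tac1 (both) and Trh (both), with limma adjusted p from 0.00288 for Tac1 to 0.0258 for Trh among the 5 outside the second probe set of Trh. With array weights 3 of 12 passed, without Npy (limma adjusted p = 0.0605), the second probe set of Tac1 (0.0575) and the standing one of Trh (0.0575). In a fit that pairs arrays of 1 time by number 3 of 12 passed, with Sst gained and Penk among those lost (limma adjusted p = 0.0749). The share of all tested probe sets was not counted with array weights or with this pairing. The mean effect over the 5 times passed for 6 of 12, all higher (2.97% of all passed as higher). It was 0.38 ± 0.06 SE for Npy (limma adjusted p = 0.000126) and 0.58 ± 0.10 for Penk (0.000525). From 1 to 6 h the increase of the effect was 1.21 ± 0.32 SE for Penk (limma adjusted p = 0.0706) and 1.11 ± 0.31 for Tac1 (0.0997), neither past the threshold, which 0.92% of all probe sets passed as positive. Without the second probe set of Trh, 1 of 11 passed for a larger effect at 24 h than at 6 h, the standing one of Trh (2.17% of all). For a smaller effect at 72 h than at 24 h 0 of 11 passed (0.65% of all). The second of Trh entered the test only through groups where it is high, so its differences are a description. With no filter, its effect was larger at 24 h than at 6 h (limma adjusted p = 6.01e-05). It was also smaller at 72 h than at 24 h (0.0223). In a fit with the filter that pairs arrays of 1 time by number, the latter did not pass (0.088). For a smaller effect at 240 h than at 24 h 5 of 12 passed, beside 2.6% of all, and 4 of 11 without the second probe set of Trh.

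Control levels of some precursors were not steady across times. The PBS groups differed between times for 5 of 12 member probe sets (16.9% of all tested), which were those of Npy, Sst (both), Cck and the second of Pdyn. The PBS mean of Cck was 551 ± 66.1 (SD, n = 3) at 6 h and 601 ± 81.7 at 72 h, but 771 ± 113 at 1 h, 921 ± 53.3 at 24 h and 827 ± 84.7 at 240 h. That of Sst ran from 1289 ± 149 at 240 h to 2204 ± 364 at 24 h, and was 1511 ± 107 at 6 h. Every kainate effect above is taken against the controls of its own time. Fits with the arrays of 6 and 72 h alone, or of 1, 24 and 240 h alone, left each of the 12 probe sets on the same side of the threshold at every time.

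The other genes of the peptide system were taken from lists by function, each gene by its brightest probe set. Of 16 tested precursors outside the 8, 1 rose at 1 h and at 6 h, which was Crh, the corticotropin-releasing hormone, 2.27-fold and 2.34-fold (limma adjusted p = 0.0477 and 0.013). At 24 h Cartpt, the precursor of the CART peptides, rose 1.69-fold, and Agt, angiotensinogen, was 2.02-fold lower. None passed at 72 or 240 h. Adcyap1, Nppa and Pnoc each had 1 of 3 probe sets past the threshold at 6 h, which was not the brightest. The same held for Pnoc at 24 h, with 1 of 3. The median log2 change of these 16 was 0.07 at 6 h and 0.06 at 24 h, beside −0.13 and −0.06 over all 3696 tested genes, of which 3.76% and 12.1% passed. At 1 h 0.758% of all tested genes passed.

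The receptor list held receptors for the member peptides and related ones, such as Oprl1, Adcyap1r1 and Tacr3. Of its 15 tested genes, by the brightest probe set 0 passed as higher at any of the 5 times, and 1 fell. That was Cckbr, the brain cholecystokinin receptor, which was 2.15-fold lower at 24 h (limma adjusted p = 0.00545) on 1 of its 2 tested probe sets. Sstr1, a somatostatin receptor, had 1 of 3 probe sets past the threshold at 6 h, which was not the brightest. The median log2 change of the 15 at 24 h was −0.26, beside −0.06 over all tested genes, of which 12.1% passed. Npy1r, the Y1 receptor, had changes of −0.43 at 6 h and −0.38 at 24 h, Oprm1, the mu opioid receptor, −0.45 and −0.42, and Tacr1, the substance P receptor, −0.01 and 0.81, none of which passed. Oprd1, Oprk1 and Npy5r were on the array but did not pass the filter on low signal.

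Of 10 tested granins and processing genes, 3 rose at 6 h and 2 at 24 h, beside 3.76% and 12.1% of all genes called in either direction. Scg2, secretogranin II of dense core vesicles, rose 3.24-fold at 6 h (limma adjusted p = 1.35e-07) and Vgf, a secreted granin-like precursor, 2.26-fold at 6 h (8.27e-07) and 2.89-fold at 24 h (8.57e-09). The third at 6 h was Chgb, chromogranin B, 1.43-fold. Pam had 1 of 3 probe sets past the threshold at 6 h, which was not the brightest. At 24 h Pam, which amidates peptides such as neuropeptide Y, rose 1.47-fold (0.0164) on 2 of 3 probe sets, and Cpd, a carboxypeptidase, was 1.78-fold lower. Pcsk2 and Cpe, a convertase and a carboxypeptidase of the granules, had changes of 0.02 and −0.15 at 6 h and −0.06 and 0.15 at 24 h that did not pass. Of 10 tested peptidases, Dpp4 and Thop1 rose at 24 h, 3.33-fold and 1.98-fold.

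The next list held transcription factors that bind CRE or AP-1 sites, among them Creb1, Atf2 and Jund, or that activity induces. Of its 16 tested genes, 8 had risen at 1 h, when no precursor among the 8 members passed, and 12 at 6 h. At 24 h 0 were higher and 3 lower. In either direction, 0.758% of all tested genes passed at 1 h, 3.76% at 6 h and 12.1% at 24 h. Egr2 and Nr4a1 rose 10.2-fold and 8.34-fold at 1 h, and Junb and Fos, subunits of AP-1, 7.92-fold and 5.84-fold at 6 h. At 24 h Nr4a3 and Nr4a1 were 2.14-fold and 1.89-fold lower than controls, on 1 of 2 and 2 of 2 tested probe sets. Their median log2 change was 1.07 at 1 h, 1.23 at 6 h and −0.29 at 24 h, and that of the 8 members by their standing probe sets 0.13, 0.52 and 0.55.

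**Figure D4:**
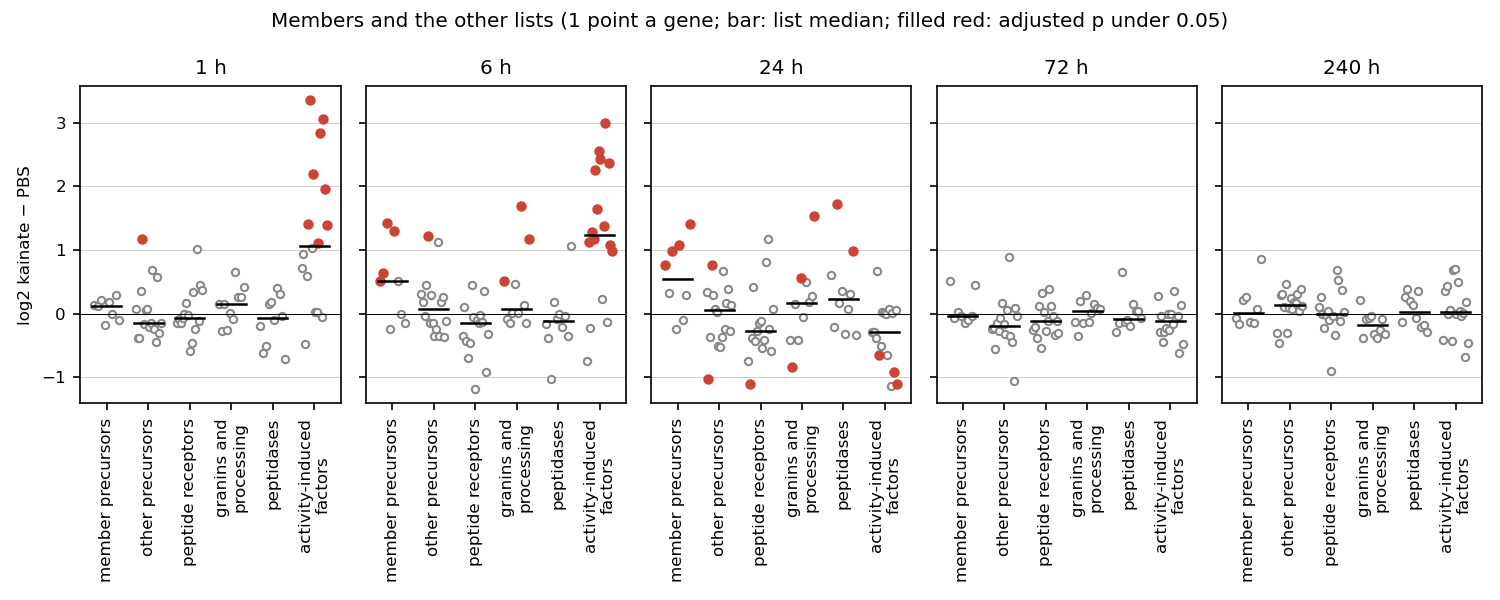
Log2 kainate minus PBS at each time of the 8 members and of 5 lists, 1 point a gene by its brightest probe set. Bars are list medians and filled red points passed at an adjusted p under 0.05. The list labelled activity-induced factors, which also holds Creb1, Atf2 and Jund, has 8 filled points at 1 h and 12 at 6 h, all higher. The members have 4 at 6 h and 4 at 24 h.

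Likeness over arrays was measured by Pearson's r of log2 values over all 30, each taken as its deviation from the mean of the 6 arrays of its time, so that the kainate effect is part of it. The genes most like Npy were Ifitm3 (r = 0.814), the complement chain C1qb (0.81) and Pam (0.804). Those most like Penk were the chemokine Ccl2 (0.864), Pmepa1 (0.848) and Crem (0.833), a CRE-binding factor. Crem rose 2.43-fold at 6 h (limma adjusted p = 0.000509), and 2 of its 3 tested probe sets passed. Those most like Tac1 were Pdpn (0.805), the hyaluronan receptor Cd44 (0.8) and Vgf (0.792). Those most like Sst were Ptp4a1 (0.721), the intermediate filament gene Ina (0.716) and the pentraxin Nptx2 (0.71). Those most like Trh were Cyba (0.773), RT1-Da (0.741) and Ninj1 (0.739).

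Markers of the cells and neighbouring regions that could carry these peptides were read beside them. The counts below stand beside 0.758% of all tested genes that passed at 1 h, 3.76% at 6 h and 12.1% at 24 h. The summed signal of 10 tested interneuron genes outside the members was 2981 to 3201 on PBS and 3218 to 3315 on kainate arrays at 6 h, and 2929 to 3096 and 2459 to 2662 at 24 h. Within that list Crhbp rose at both times, 3.01-fold and 5.55-fold, while Pvalb and Cnr1 were 1.47-fold and 1.70-fold lower at 24 h. Of 9 tested general neuron markers 2 were lower at 24 h, with sums of 6841 to 7234 on PBS and 6347 to 6622 on kainate arrays. Of 8 tested microglia and macrophage markers 2 rose at 6 h and 3 at 24 h, when their sum went from 432 to 478 on PBS to 1019 to 1248 on kainate arrays. Of 7 tested astrocyte markers 1 rose at 24 h, Vim, a filament gene of reactive glia, 5.85-fold, and 2 fell, Aldoc and S100b, 1.78-fold and 1.49-fold lower, with sums of 6133 to 6788 on PBS and 5374 to 6253 on kainate arrays. Of 3 tested dentate granule cell markers Bdnf, which neuronal activity induces, rose 2.21-fold at 1 h, 8.27-fold at 6 h and 1.81-fold at 24 h. Those values are from its brightest probe set, and 2, 5 and 3 of its 7 tested probe sets passed as higher at these times. The other granule cell markers, Calb1 and Grm2, had log2 changes of 0.19 and −0.05 at 6 h and −0.37 and 0.64 at 24 h that did not pass. The part of these shifts in the precursor values was not tested. Of 3 tested striatal markers none passed at any time, Drd2 and Rgs9 did not pass the filter, and the sum at 6 h was 320 to 421.7 on PBS and 292 to 324.5 on kainate arrays. For the hypothalamus and thalamus, 3 tested markers had sums of 428 to 494 on PBS and 314 to 424 on kainate arrays at 24 h, and none passed. Choroid plexus markers, 4 tested and none passed, ran from 438 to 5526 in sum over all 30 arrays. For beta-actin, log2 signal at the 3 prime end minus that at the 5 prime end, a sign of RNA quality, was 0.52 ± 0.07 (SD, n = 3) on PBS and 0.41 ± 0.05 on kainate arrays at 6 h, and 0.69 ± 0.08 and 0.79 ± 0.15 at 24 h. Its part was not tested either.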

How the data were processed

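The deposited table held 1 linear signal intensity per probe set for each of 30 arrays, and the labels put 3 arrays in each of 10 groups. The sources used here do not give how the authors made these intensity values. The deposited columns had trimmed means (2% off each end) between 150.1 and 150.2. Each array was scaled to their mean, values were floored at the 20th percentile (signal 10.95) and turned into log2. Probe sets above the 40th percentile (signal 35.2) on at least 3 arrays were tested, 6303 in all, without the 59 array controls. Genes came from the platform annotation (7006 probe sets with 1 gene, 308 with several, 1426 with none; 6985 matched to a current RefSeq gene).

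Tests used limma 3.58.1 in R 4.3.3, with a mean per group, an intensity trend and Benjamini-Hochberg adjustment, and were tested on simulated data. Residual degrees of freedom were 20. The number of arrays limits the precision. Figures were drawn with matplotlib 3.10.9. The members and lists were chosen with earlier results of these data known. All members are named at every time. From each list at most the 2 passing genes with the largest change per direction and time are named, besides counterparts of a member, genes most like it and cell markers, and Chgb, Adcyap1, Nppa, Pnoc and Sstr1, which were named after their values were seen. Promoter sequences are RefSeq's, in GRCr8.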

Additional observations from a re-analysis of the deposited data

Results flagged for a closer look

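The kainate effect differed between the 5 times for 6 of 12 member probe sets by limma's F test, beside 6.62% of all tested. They were Npy (adjusted p = 0.024), Penk (0.0165), Tac1 (0.00289) and its second probe set (0.019), and Trh (0.0258) and its second probe set (1.79e-06). With array weights Npy, the second probe set of Tac1 and the standing one of Trh no longer passed (adjusted p = 0.0605, 0.0575 and 0.0575). With arrays of 1 time paired by number these were lost too (0.067, 0.076 and 0.118). Penk was also lost (0.0749), and the standing probe set of Sst was gained (0.0313). The second probe set of Trh could pass the filter on low signal only through groups where it is high, and with no filter its adjusted p was 9.56e-06. Between single times, the effect on the standing probe set of Trh was larger at 24 h than at 6 h (limma adjusted p = 0.013). For the second probe set of Trh such differences are a description, because of how it passed the filter. Its effect was larger at 24 h than at 6 h (limma adjusted p = 2.58e-05 with the filter and 6.01e-05 without). On the second probe set of Trh it was smaller at 72 h than at 24 h (adjusted p = 0.0206) and smaller at 240 h than at 24 h (2.02e-06). A smaller effect at 240 h than at 24 h was also seen for Npy (limma adjusted p = 0.00949), the second probe set of Sst (0.0281), Tac1 (0.0218) and its second probe set (0.0221). For the second probe sets of Sst and Tac1 it did not pass with array weights (0.0649 and 0.0599) or with arrays paired by number (0.0642 and 0.0558). Each was picked out because effects under the same contrast differed between times.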

How the results depend on the processing

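Of 18 effects on single probe sets that passed, at a time or as a mean, 392 of 402 values under the alternatives kept direction and call, 10 kept direction only and 0 changed direction. Of 5 member probe sets past the threshold at 6 h, 3 to 6 passed when an array of 6 h was left out, with 3 without kainate replicate 3. With array weights 2 passed at 72 h, Npy and the second of Trh. With array weights 7 passed at 6 h, Cck and the second of Sst added. The 6 effects that differed between times became 3 with array weights and 3 with the replicate block, which pairs arrays of 1 time by number. How many of all probe sets passed with array weights, with the block or with an array left out was not counted. These counts therefore have no share of all beside them. Under the block Npy (limma adjusted p = 0.067), Penk (0.0749), the second of Tac1 (0.076) and Trh (0.118) were lost and Sst (0.0313) was gained. The pairing by number is not borne out: correlations of same-numbered arrays ran from −0.07 to 0.17, and 15 of 30 arrays correlated best with their own number. With the block the mean effects on Trh (limma adjusted p = 0.0524) and on the second probe set of Sst (0.0543) also missed the threshold, and no other effect at a single time or mean effect changed its call. In tests added after seeing the data, the block also ended the differences of 240 h from 24 h for the second probe sets of Sst (0.0642) and Tac1 (0.0558) and that of 72 h from 24 h for the second of Trh (0.088), while that of 72 h from 24 h then passed for Tac1 (0.0288). Array weights ended the difference of 240 h from 24 h for the same probe sets of Sst (0.0649) and Tac1 (0.0599), and gave that of 72 h from 24 h for Tac1 (0.0283) and its second probe set (0.0399). For the second probe set of Sst the mean effect missed it with quantile normalization too (0.0566). Signs turned only among effects that had not passed. With quantile normalization the effects became −0.0327 for Vip at 240 h, 0.101 at 6 h and 0.0143 at 72 h, 0.0215 for the second probe set of Sst at 240 h and 0.0167 for the mean of the second of Pdyn, which was 0.0106 with array weights. When single arrays were left out, Cck ran from −0.126 to 0.0869 at 1 h, −0.282 to 0.0993 at 24 h, −0.212 to 0.00361 at 72 h, −0.325 to 0.00832 at 240 h and −0.00229 to 0.074 as a mean. Npy ran from −0.186 to 0.0826 at 240 h, Pdyn from −0.176 to 0.0391 at 72 h, and its second probe set from −0.348 to 0.105 at 24 h and −0.0668 to 0.0239 as a mean. Penk ran from −0.0809 to 0.171 at 72 h and Sst from −0.00254 to 0.222 at 1 h. The second probe set of Sst ran from −0.0262 to 0.152 at 1 h, −0.0266 to 0.13 at 72 h and −0.0409 to 0.0241 at 240 h. Tac1 ran from −0.0292 to 0.366 at 1 h and −0.225 to 0.00619 at 240 h, and Trh from −0.343 to 0.181 at 1 h. Vip ran from −0.0749 to 0.0571 at 6 h, −0.105 to 0.0422 at 72 h and −0.0526 to 0.199 at 240 h. The cause of these shifts was not tested. Probe sets near the floor, such as the second of Trh, carry the least certain folds.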
